A study of Mus musculus with 6 samples.

Results

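Immediate early genes are switched on within minutes of a stimulus, without new protein synthesis, and are silenced again as fast. Several of them encode subunits of AP-1, a dimeric transcription factor in which Fos proteins pair with Jun proteins through leucine zippers, and ATF3 is a stress-induced relative that can join such dimers. In macrophages these genes respond to microbial products, growth factors, oxidants and the handling of the cells, and the phosphatase DUSP1 closes the loop by switching off the MAP kinases that induce them. The group described here is the 10 genes Atf3, Fos, Fosb, Fosl2, Jun, Junb, Jund, Egr1, Ier2 and Dusp1, chosen by symbol among the 25664 genes of the count table. All 10 had a row in the table. Of these, 9 passed the filter on low counts, and Egr1 did not.

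The data are read counts of 6 RNA sequencing libraries of mouse alveolar macrophages, the resident phagocytes of the airspaces, sorted from lavage fluid with the same number of cells taken for each sample. The control group, genotype Pex5fl/fl, has 3 libraries, and the Pex5-deficient group, genotype Vav1cre/+ Pex5fl/fl, has 3. PEX5 is the receptor that carries most matrix enzymes into peroxisomes. Both groups carry the floxed alleles and only the Pex5-deficient group carries the recombinase, so an effect of the recombinase itself and of the loss of Pex5 cannot be told apart. Vav1-Cre acts in blood-forming cells and all their progeny, and is therefore not limited to macrophages. No agent is named in the labels, and neither the age and sex of the mice nor whether each sample came from 1 mouse is stated there. The p-values therefore measure only how far these samples spread, and part of that spread may be technical. Where 3 values are given for a group, they stand in the order of replicates 1, 2 and 3.

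Library totals ran from 13325609 to 19413838 counts. Pex5-deficient replicate 2 stood apart in its scaling factor, 1.34 against 0.90 to 1.03 in the others. Pex5 itself measured 33.0, 32.1 and 29.7 CPM (counts relative to library size, on a common scale) in control and 31.4, 36.3 and 29.6 CPM in Pex5-deficient libraries. A count over the whole gene includes the exons that a floxed allele keeps, so these values do not check the genotype. The cells carried the markers of alveolar macrophages, with Chil3 at 34777 or more and Siglecf at 170 or more CPM of unscaled totals in every library. Siglecf was nevertheless lower in Pex5-deficient libraries (log2 fold change -1.57 ± 0.16, adjusted p = 0.00334 by edgeR's quasi-likelihood test). Markers of lymphocytes summed to at most 1.48 CPM, but the listed epithelial markers summed to 975 to 1372 CPM of unscaled totals. In bulk RNA, a change in the number of cells that express a gene and a change in the RNA per cell cannot be told apart.

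Immediate early genes are often compact, and so was the median member, though not every member. The median member spanned 4.70 kb of the genome with at most 3.5 exons in a transcript, against 22.8 kb and 9 exons for 10865 tested genes with a single entry in the annotation (GENCODE release M21 on GRCm38). Atf3 at 47.7 kb and Dusp1 at 56.5 kb spanned more than the median of all these genes, and Fosl2 was near it at 22.0 kb. Jun, Jund and Ier2 have 1 exon each. Binding sites for CREB and ATF proteins are a known feature of the promoters of this class, so the 250 bases before the RefSeq start site (GRCm38.p6) were read for 8 members; none was read for Egr1 and Ier2. The half-site TGACG, searched on both strands, lay in 5 of the 8 windows (Atf3, Fos, Fosb, Junb and Dusp1) and in 17.7% of all 32817 windows of the same length. The full palindrome TGACGTCA, which contains the half-site on each strand, lay in 1 of 8, that of Dusp1, and in 1.55% of all windows. The pattern TGANTCA, in which N is any base and which is thus wider than the AP-1 site, lay in 0 of 8 and in 6.75% of all windows. The CArG box bound by SRF lay in 0 of 8 and in 1.47%. The RefSeq starts of Fosl2 and Jund lie 671 and 1210 bases from the start of the GENCODE gene. These are matches of letters in a short window and not measured sites. Bases further upstream were not read, so a count of 0 does not show that a promoter lacks the site.

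The windows of 3 members are shown because their transcripts give the main results: Atf3, the member called, and Fos and Dusp1, the members that varied most between libraries of one group among those above 5 CPM. Each is written 5′ to 3′ along the strand of the gene and ends just before the start site, with matches to TGACG or its complement CGTCA in capitals.
Atf3, chr1:191183334-191183583, minus strand: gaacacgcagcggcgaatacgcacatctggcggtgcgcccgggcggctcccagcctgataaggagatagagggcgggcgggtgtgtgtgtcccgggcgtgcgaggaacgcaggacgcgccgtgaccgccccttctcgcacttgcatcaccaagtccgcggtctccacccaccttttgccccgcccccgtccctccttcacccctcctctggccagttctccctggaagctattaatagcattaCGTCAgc
Fos, chr12:85473640-85473889, plus strand: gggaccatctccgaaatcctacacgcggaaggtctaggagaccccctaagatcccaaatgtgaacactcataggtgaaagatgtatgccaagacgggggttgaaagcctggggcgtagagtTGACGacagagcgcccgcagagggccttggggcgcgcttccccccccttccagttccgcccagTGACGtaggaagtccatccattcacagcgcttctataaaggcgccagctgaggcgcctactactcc
Dusp1, chr17:26508473-26508722, minus strand: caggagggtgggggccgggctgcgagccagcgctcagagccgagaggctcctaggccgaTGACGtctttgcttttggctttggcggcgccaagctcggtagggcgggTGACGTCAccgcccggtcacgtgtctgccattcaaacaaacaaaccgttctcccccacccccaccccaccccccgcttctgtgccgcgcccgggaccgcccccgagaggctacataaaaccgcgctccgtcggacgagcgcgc
The match of Atf3 lies 7 to 3 bases before the start. Fos has 1 match 129 to 125 and 1 match 66 to 62 bases before it, the latter upstream of a TATAAA at 33 to 28 bases. In Dusp1 the palindrome lies 143 to 136 bases before the start and a further half-site 191 to 187 bases before it. GENCODE also lists transcripts of Atf3 and Dusp1 that begin 34706 and 53656 bases further upstream, and gene counts do not tell which start was used.

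The comparison asks whether these stress and activation genes differed between Pex5-deficient and control alveolar macrophages. Atf3 rose 2.59-fold, and no other tested member was called in either direction. In edgeR's quasi-likelihood test, adjusted by Benjamini-Hochberg over all 11011 genes tested, 1 of 9 tested members was called (adjusted p under 0.05), beside 3.25% of all genes. In the higher direction it was 1 of 9, beside 1.74% of all genes, and in the lower direction 0 of 9, beside 1.51%. At an unadjusted p under 0.05 there were 2 of the 9, Atf3 and Dusp1, beside 18.9% of all genes. The groups did not overlap for 3 of 9 members, beside 26.1% of all genes: Atf3 and Jund were higher (13.0% of all genes) and Fosb was lower (13.1%) in every Pex5-deficient library. The share without overlap is thus close to that of all genes. The median log2 fold change of the tested members was 0.13, against -0.0008 for all genes tested, with 5 members above 0 and 4 below.

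**Figure D1:**
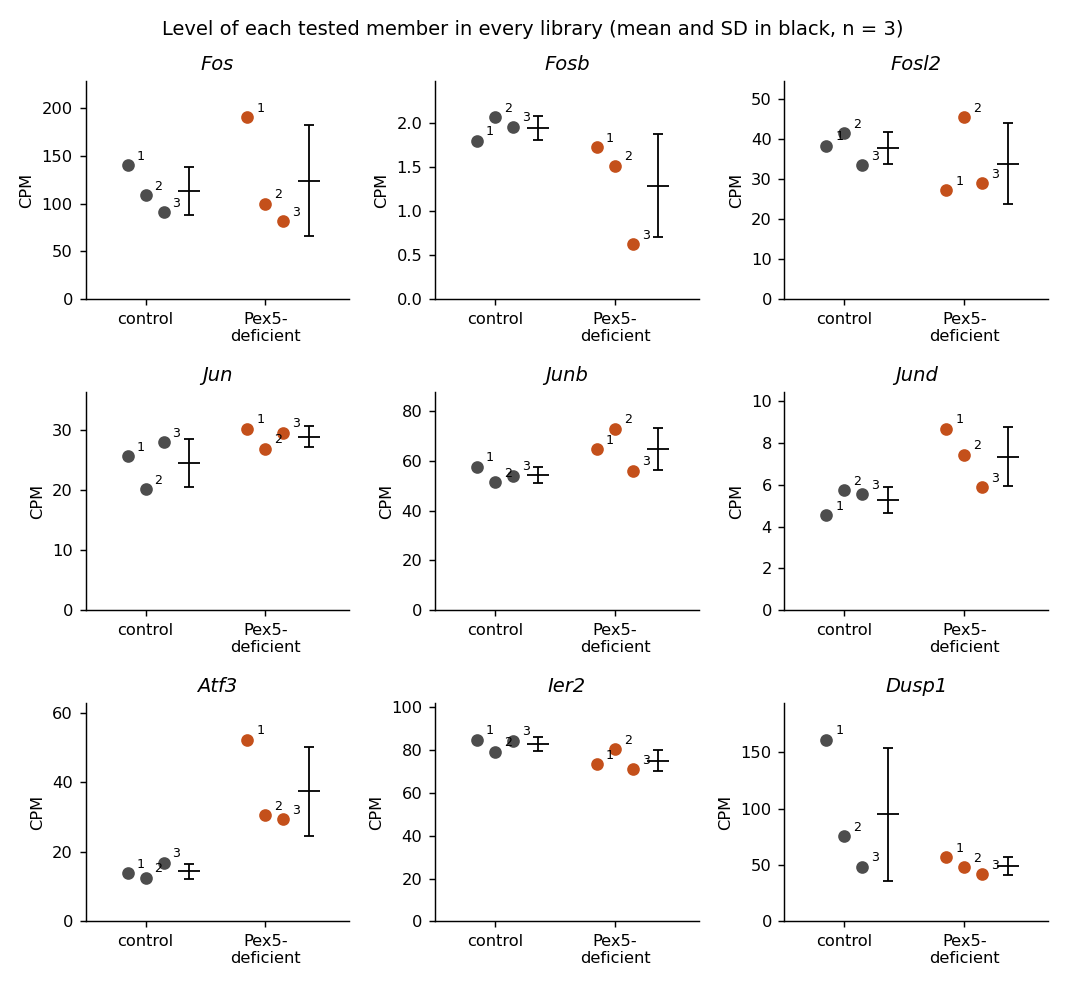
Level in CPM of each of the 9 tested members in the 6 libraries (points, numbered by replicate; black bars give mean and SD, n = 3 per group). Atf3 lies between 12.5 and 16.9 CPM in control and between 29.5 and 52.3 CPM in Pex5-deficient libraries, while the groups overlap for Fos, Fosl2, Jun, Junb, Ier2 and Dusp1.

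Atf3, on chromosome 1 from 191170296 to 191218039, encodes a basic leucine zipper protein that is induced by many stresses, can pair with Jun proteins and restrains inflammatory genes in macrophages. It measured 13.8, 12.5 and 16.9 CPM in control and 52.3, 30.6 and 29.5 CPM in Pex5-deficient libraries. The lowest Pex5-deficient library lay above the highest control library, and Pex5-deficient replicate 1 was the highest. The means were 14.4 ± 2.23 and 37.5 ± 12.9 CPM (SD, n = 3 per group), a log2 fold change of 1.37 ± 0.23 (SE) with a 95% interval from 0.84 to 1.90 (adjusted p = 0.0203 by edgeR's quasi-likelihood test). It ranked 139 of 11011 genes by p. Behind these values stand 177 to 250 counts per control library and 522 to 728 per Pex5-deficient library. Without control replicate 1 (adjusted p = 0.0978, log2 fold change 1.34) or control replicate 2 (adjusted p = 0.0748, 1.28) the call was lost, although the value hardly moved. Without Pex5-deficient replicate 1, the highest library, the log2 fold change was 1.06 and the call held (adjusted p = 0.0270), and without Pex5-deficient replicate 2, which had the deviating scaling factor, it was 1.51 (adjusted p = 0.0189).

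Transcripts of other cell types and of handling stress were measured beside this rise. Of 12 neutrophil markers, 4 were tested and 2 rose, Cxcr2 and S100a8. Mmp8 (log2 fold change 0.90 ± 0.31) and Csf3r were not called. Csf3r was at 36.8, 29.9 and 49.7 CPM of unscaled totals in control and 25.4, 51.0 and 17.8 CPM in Pex5-deficient libraries. The list summed to 78.1 to 102 CPM of unscaled totals in control and 133 to 180 CPM in Pex5-deficient libraries. The defining neutrophil genes S100a9, Retnlg, Ly6g, Camp, Ngp and Mmp9 were at 0 counts in all 6 libraries. Of 11 markers of monocytes and interstitial macrophages reported here, 3 were tested. By edgeR's quasi-likelihood test 0 of them were called, with 2 at an unadjusted p under 0.05. The list summed to 57.4 to 66.8 CPM in control and 39.1 to 78.8 CPM in Pex5-deficient libraries, overlapping, with C1qc at 0 in all. Among alveolar macrophage markers 5 of 20 tested fell and 1 rose, beside 1.51% and 1.74% of all genes. The 3 with the smallest p all fell. They are the surface receptor gene Siglecf, from a mean of 650.9 to 218.9 CPM, Fabp1, a fatty acid binding protein gene (log2 fold change -2.51 ± 0.28), and the keratin gene Krt79 (-1.44 ± 0.25). The other called markers were Cidec, Fabp4 and Ear1, of which 1 rose. Chil3, the most abundant, had 0.16 ± 0.55 (not called). Of 5 tested epithelial markers Epcam fell. Cdh1 had a log2 fold change of 0.51 ± 0.18 and Krt19, the most abundant, -0.37 ± 0.19, neither called. The epithelial list summed to 1166 to 1372 CPM of unscaled totals in control and 975 to 1102 CPM in Pex5-deficient libraries. Krt19 alone had means of 1203 and 929 CPM. Siglece was the sole tested gene of the eosinophil and mast cell list and fell. Prg2, Epx, Ccr3, Il5ra, Mcpt4, Ms4a2 and Fcer1a of that list were at 0 in all libraries, so its fall does not show a change in such cells. No tested marker of dendritic cells or lymphocytes was called. Heat shock genes, which respond to handling and protein damage, gave 0 calls among 13 tested by edgeR's quasi-likelihood test. They had 0 at an unadjusted p under 0.05 by the same test and a median log2 fold change of 0.02. The part of other cell types and of handling in the Atf3 result was not tested.

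Fos, on chromosome 12 from 85473890 to 85477273, encodes the founding Fos subunit of AP-1 and is the classic immediate early gene. It measured 140, 109 and 91.1 CPM in control and 190, 99.8 and 81.8 CPM in Pex5-deficient libraries. Pex5-deficient libraries held both the highest and the lowest value of all 6. The log2 fold change was 0.13 ± 0.30 (95% interval -0.55 to 0.80, adjusted p = 0.865), so a change of up to 1.75-fold upward or to 0.68 of the control level lies inside the interval. The sign turned without Pex5-deficient replicate 1 (-0.32, adjusted p = 0.497). The ratio of the highest to the lowest Pex5-deficient library, 2.33, was larger than that of 97.7% of 8612 genes with a mean of at least 5 CPM.

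Fosb and Fosl2 encode the other Fos subunits of the group, and FOSL2 is the more stable, late member of the family. Fosb, on chromosome 7 from 19302696 to 19310051, was at 1.80, 2.06 and 1.96 CPM in control and 1.72, 1.51 and 0.62 CPM in Pex5-deficient libraries. All Pex5-deficient values lay below all control values, the nearest by a small margin, and rested on 11 to 36 counts a library over both groups. Its log2 fold change was -0.61 ± 0.37 (95% interval -1.46 to 0.24, adjusted p = 0.421). Fosl2, on chromosome 5 from 32135801 to 32157842, was at 38.3, 41.4 and 33.4 CPM in control and 27.2, 45.3 and 28.9 CPM in Pex5-deficient libraries. Pex5-deficient replicate 2 was the highest of all, and the groups overlapped, with a log2 fold change of -0.15 ± 0.19 (95% interval -0.59 to 0.29, adjusted p = 0.727). With scaling by library size alone the sign turned (0.08), and without Pex5-deficient replicate 2 the value was -0.41.

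The Jun subunits form the other side of the AP-1 dimer. Jun, on chromosome 4 from 95049034 to 95052222, is the most potent activator among them. It measured 25.7, 20.2 and 28.0 CPM in control and 30.3, 26.9 and 29.6 CPM in Pex5-deficient libraries, with overlapping groups and a log2 fold change of 0.23 ± 0.14 (adjusted p = 0.391). Junb, on chromosome 8 from 84974484 to 84978718, often opposes Jun in cell growth. It was at 57.7, 51.4 and 54.1 CPM in control and 64.6, 73.0 and 56.1 CPM in Pex5-deficient libraries. Only the lowest Pex5-deficient library lay within the control range, and the log2 fold change was 0.25 ± 0.12 (95% interval -0.02 to 0.52, adjusted p = 0.297).

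Jund, on chromosome 8 from 70698949 to 70700616, is known for steady rather than induced expression. It was at 4.54, 5.73 and 5.54 CPM in control and 8.68, 7.44 and 5.88 CPM in Pex5-deficient libraries, which do not overlap. Its log2 fold change of 0.47 ± 0.21 (95% interval -0.003 to 0.94) was not called (adjusted p = 0.267). An antisense gene overlaps 52.6% of the exon bases of Jund, Prdx2 overlaps 7.52% of those of Junb on the opposite strand, and an antisense gene overlaps 7.28% of those of Jun. No source used here states the strand setting of the counting, so these 3 values are uncertain, Jund most. Prdx2 itself was at 162 to 254 CPM of unscaled totals. No word of 100 bases in the longest transcript of any member occurred in a transcript of another gene.

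**Figure D2:**
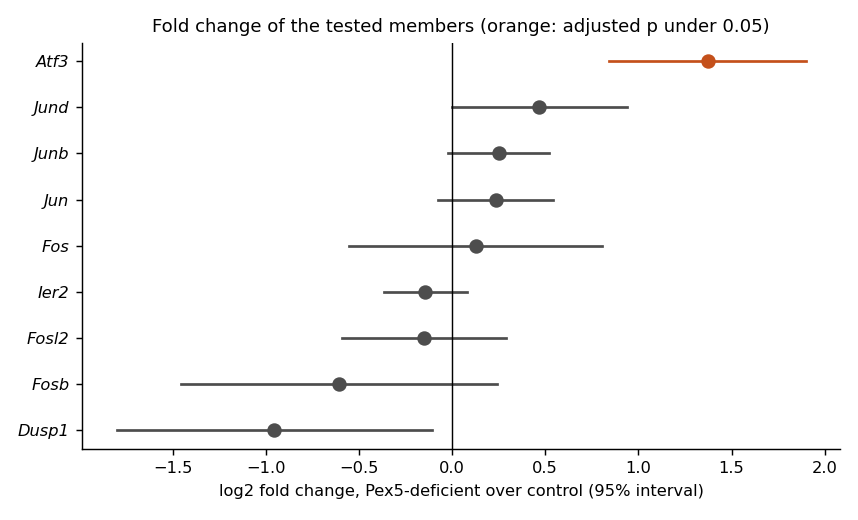
Log2 fold change of each tested member, Pex5-deficient over control (points), with its 95% interval (lines). The interval of Atf3 runs from 0.84 to 1.90, and Atf3 is the only member with an adjusted p under 0.05.

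Dusp1, on chromosome 17 from 26505590 to 26562128, encodes a nuclear phosphatase that inactivates p38 and JNK and is itself an immediate early gene. It measured 161, 75.5 and 48.4 CPM in control and 57.2, 48.1 and 41.8 CPM in Pex5-deficient libraries. Control replicate 1 stood far above the other 5 libraries, and the lowest control library lay inside the Pex5-deficient range. The means were 95.1 ± 58.9 and 49.0 ± 7.72 CPM, with a log2 fold change of -0.95 ± 0.37 (95% interval -1.80 to -0.11), not called (adjusted p = 0.215 by edgeR's quasi-likelihood test). Without control replicate 1 it was -0.34 (adjusted p = 0.526). The ratio of the highest to the lowest control library, 3.33, was larger than that of 99.4% of 8612 genes with a mean of at least 5 CPM.

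Ier2 and Egr1 are the remaining members. Ier2, on chromosome 8 from 84661331 to 84662852, encodes a small nuclear protein of growth factor responses. It varied little, at 84.8, 79.3 and 84.3 CPM in control and 73.3, 80.4 and 71.0 CPM in Pex5-deficient libraries. The ratio of highest to lowest library was 1.07 in control and 1.13 in Pex5-deficient cells, and the log2 fold change was -0.14 ± 0.10 (95% interval -0.36 to 0.08, adjusted p = 0.465). With scaling by library size alone it was 0.04, so its direction depended on the scaling.

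Egr1, a zinc finger factor that is among the first genes induced in activated macrophages, was almost not detected. It had 5, 4 and 11 counts in control and 1, 2 and 2 counts in Pex5-deficient libraries, while 3 counts correspond to 0.155 to 0.225 CPM. The groups do not overlap, but every Pex5-deficient library lies under 3 counts. The 20 counts in control against 5 in Pex5-deficient libraries give a ratio of 4.25 per unscaled total, with an exact 95% Poisson interval from 1.55 to 14.5 that covers counting error only. With no filter on low counts edgeR's quasi-likelihood test gave an adjusted p of 0.198, and DESeq2 gave 0.237.

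**Figure D3:**
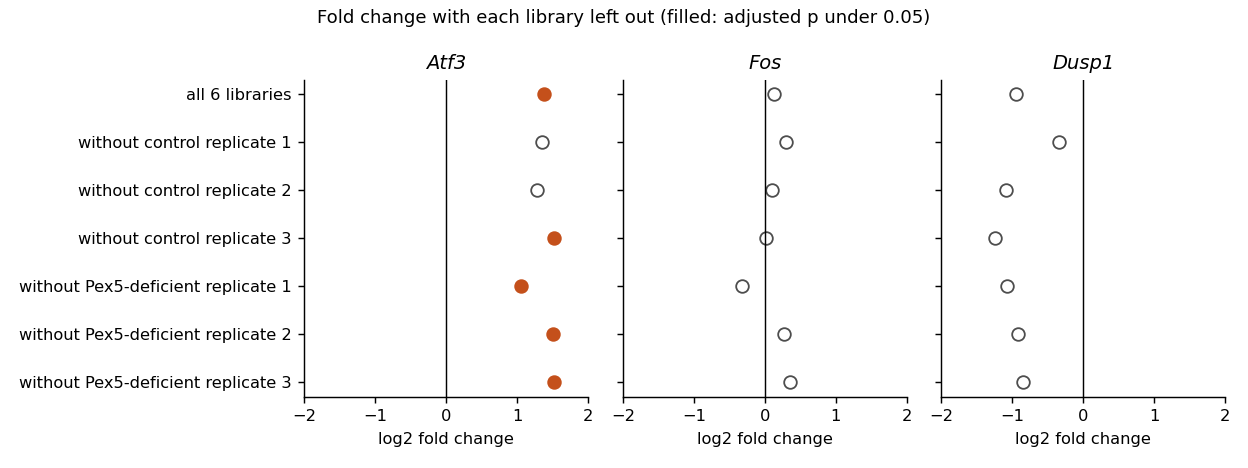
Log2 fold change of Atf3, Fos and Dusp1 with all 6 libraries and with each left out in turn (filled points have an adjusted p under 0.05). Atf3 stays between 1.06 and 1.52, Fos crosses 0 without Pex5-deficient replicate 1, and Dusp1 is nearest to 0, at -0.34, without control replicate 1.

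The libraries of the Pex5-deficient group were ordered alike for many members. Pex5-deficient replicate 1 was the highest of its group for 6 of the 9 tested members and replicate 3 the lowest for 7 of 9. In control, replicate 1 was the highest for 4 of 9, Fos, Junb, Ier2 and Dusp1. This order is a description of 6 libraries and was not tested.

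Levels can be compared roughly between genes once divided by length, here CPM per kb of merged exons. These lengths are from GENCODE M21 and include the exons of every transcript, while the annotation used for the counting is not stated. Close ranks are therefore uncertain. In control, Ier2 (54.4 ± 2.01 CPM per kb) and Fos (48.2 ± 10.6) led, followed by Dusp1 (28.7 ± 17.8) and Junb (23.6 ± 1.36), and each overlapped the next in order among these 4. Jun (7.71 ± 1.26) and Atf3 (6.70 ± 1.03) came next and overlapped each other. Then came Fosl2 (3.89 ± 0.42), Jund (3.16 ± 0.38) and Fosb (0.311 ± 0.021), which were separate from one another in every library. The lowest control value of Fosl2, 3.45, was only just above the highest of Jund, 3.43. In Pex5-deficient cells Fos (52.7 ± 24.7) and Ier2 (49.2 ± 3.22) overlapped at the top, with Junb (28.1 ± 3.66) below them. Atf3 followed at 17.4 ± 5.98 CPM per kb, overlapping Dusp1 at 14.8 ± 2.33, and above Jun at 9.07 ± 0.551. Jund (4.40 ± 0.842) and Fosl2 (3.49 ± 1.03) overlapped, and Fosb (0.206 ± 0.094) was the lowest. Fos and Ier2 lay above 92.3% and 92.5% of the tested genes by this level, and Fosb above 4.83%.

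The makeup of the AP-1 transcripts was computed within each library, which does not depend on the scaling between libraries. Of the summed CPM per kb of Fos, Fosb, Fosl2, Jun, Junb, Jund and Atf3, Atf3 made up 6.06%, 6.55% and 9.12% in control and 16.1%, 13.4% and 15.4% in Pex5-deficient libraries. Its share was thus higher in each Pex5-deficient library than in any control library. The share of Fosb, which rests on few counts, was lower in each, at 0.272% to 0.372% in control and 0.112% to 0.228% in Pex5-deficient libraries, and the other 5 shares overlapped. Fos was the largest part in every library, with 45.1% to 56.2% in control and 39.2% to 53.5% in Pex5-deficient cells, and Junb the next, with 23.6% to 27.3% and 18.6% to 29.9%. Among Fos, Fosb and Fosl2, Fos held 91.0% to 93.4% in control and 89.6% to 96.3% in Pex5-deficient cells. Fosl1, also of the Fos family, was listed with the partners and left out of these shares. Inside the Jun family, Junb held 66.0% to 69.9% and 65.6% to 71.1%. Within each family on its own, the shares of the genes summed here overlapped between the groups. Summed Fos, Fosb and Fosl2 over summed Jun, Junb and Jund gave 1.78, 1.59 and 1.19 in control. In Pex5-deficient libraries this ratio was 1.96, 1.06 and 1.02, and the groups overlap. These shares describe transcripts, and they come from the same libraries as the test of Atf3. Their sizes depend on the lengths used.

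**Figure D4:**
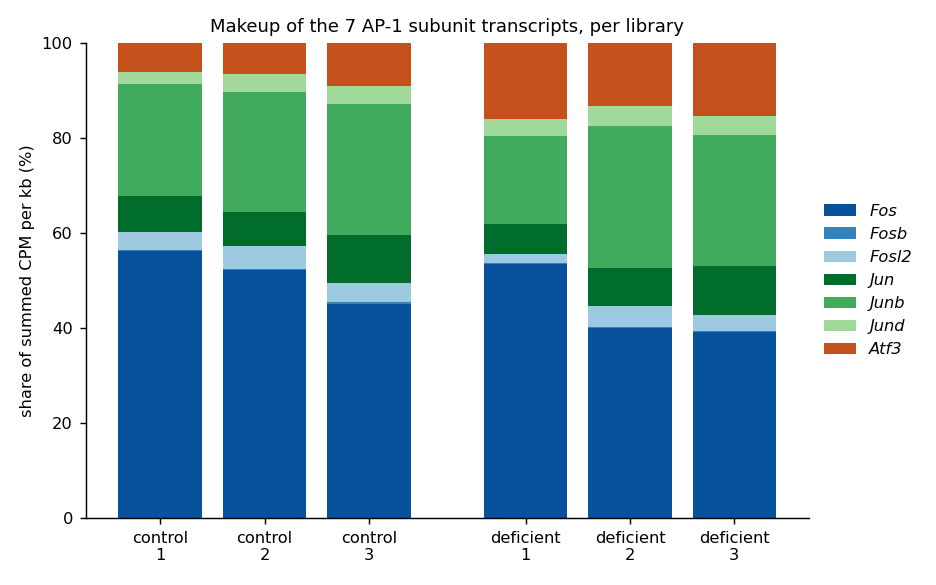
Share in percent of each of the 7 AP-1 transcripts of the group in their summed CPM per kb, 1 bar per library. The share of Atf3 is 6.06% to 9.12% in control and 13.4% to 16.1% in Pex5-deficient libraries, and Fos is the largest part in all 6.

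The genes around the members were read from lists of partners, other immediate early genes, inhibitors, kinases, regulators and targets. Over the genes of the 7 lists reported here 3 were called, all higher: Ccl3, Ccl4 and Zfp36l1. Of all genes tested, 3.25% were called and 18.9% had an unadjusted p under 0.05 by the same edgeR test. Among 26 tested AP-1 partners and other basic leucine zipper genes 0 were called by edgeR's quasi-likelihood test, with 5 at an unadjusted p under 0.05 and a median log2 fold change of 0.02. Atf4, the effector of the integrated stress response and a known inducer of Atf3, was at 66.6, 64.9 and 70.8 CPM in control and 91.3, 91.5 and 84.8 CPM in Pex5-deficient libraries. These groups do not overlap, but the difference of 0.40 ± 0.09 was not called (adjusted p = 0.0595). Ddit3, which encodes the stress-induced factor CHOP, was at 9.23, 11.9 and 10.9 CPM in control and 18.6, 14.7 and 17.2 CPM in Pex5-deficient libraries. Here too the groups were apart, and the log2 fold change of 0.65 ± 0.15 was not called (adjusted p = 0.0595). Ddit3 was called without Pex5-deficient replicate 2 (adjusted p = 0.0427) and with no filter (0.040), and DESeq2 called both Atf4 (0.0136) and Ddit3 (0.0188). Nfil3, a repressor of the same protein class, had -0.46 ± 0.10 (adjusted p = 0.0524), and was called lower without Pex5-deficient replicate 2 (0.0488) and by DESeq2 (0.0215). Nfe2l2, the most abundant of the list and the regulator of antioxidant genes, had -0.02 ± 0.13 (adjusted p = 0.947).

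Among 43 tested other immediate early genes 3 rose and 0 fell, beside 1.74% and 1.51% of all genes. The median log2 fold change was 0.30. By edgeR's quasi-likelihood test 18 of the 43 had an unadjusted p under 0.05, beside 18.9% of all genes. Groups without overlap were higher for 12 and lower for 4 genes of the list, beside 13.0% and 13.1% of all genes. This list, like the others, was chosen with earlier results of these data known. The chemokine gene Ccl3 was at 1.72, 2.004 and 1.69 CPM in control and 23.2, 7.86 and 9.72 CPM in Pex5-deficient libraries (log2 fold change 2.88 ± 0.43, adjusted p = 0.0128). Its neighbour and relative Ccl4 was at 0.31, 0.46 and 0.20 CPM in control and 2.42, 1.22 and 1.41 CPM in Pex5-deficient libraries (2.29 ± 0.46, adjusted p = 0.0347). These Ccl4 values rest on 4, 8 and 3 counts in control and 31, 29 and 25 counts in Pex5-deficient libraries, and the 95% interval of its log2 fold change is 1.25 to 3.32. Zfp36l1, which speeds the decay of short-lived messenger RNAs, was at 3.83, 4.01 and 4.12 CPM in control and 7.98, 9.37 and 8.53 CPM in Pex5-deficient libraries (1.11 ± 0.17, adjusted p = 0.0135). For all 3 genes the groups were apart, and for both chemokines Pex5-deficient replicate 1 was the highest, as it was for Atf3. Sgk1, a kinase and the most abundant gene of the list, had 0.10 ± 0.26 (adjusted p = 0.886).

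Each of these 3 calls was lost when some single library was left out. Ccl3 lost its call without control replicate 1 (adjusted p = 0.0681), with a log2 fold change of 2.85. Zfp36l1 lost it without control replicate 1 (0.0681) or 2 (0.0511), with 1.09 and 1.12. Ccl4 was no longer called without control replicate 1 (0.140), 2 (0.0747) or 3 (0.124) or Pex5-deficient replicate 1 (0.111) or 3 (0.0635), and its log2 fold change in these fits was 1.96 to 2.66. With the replicate block Ccl3 was still called (0.0352), and Zfp36l1 (0.0839) and Ccl4 (0.105) were not, and limma-voom did not call Ccl4 (0.0521). The count over the 7 lists was 0 without control replicate 1, 1 without control replicate 2, 11 without Pex5-deficient replicate 2 and 6 without Pex5-deficient replicate 3.

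The inhibitors, kinases and regulators of the pathway gave no calls in edgeR's quasi-likelihood test on all 6 libraries. Among their named genes, DESeq2 called Dusp10 (adjusted p = 0.0457), Mkl1 (0.0401) and Ddb1 (0.0210), and edgeR called Dusp3 without Pex5-deficient replicate 2 (0.0402) and Mapkapk2 without Pex5-deficient replicate 3 (0.0441). Of 12 tested MAP kinase phosphatases and Sprouty-type inhibitors 0 were called by edgeR's quasi-likelihood test, with 2 at an unadjusted p under 0.05 and a median of 0.21. The phosphatase genes Dusp10 (1.06 ± 0.27, adjusted p = 0.0743), Dusp6 (0.17 ± 0.10) and Dusp3, the most abundant of the list (0.30 ± 0.19), and the inhibitor Spred2 (1.12 ± 0.38) had log2 fold changes above 0, unlike Dusp1. Of 28 tested MAP kinases and their kinases 0 were called, with 3 at an unadjusted p under 0.05 and a median of -0.07. Mapkapk2, the kinase downstream of p38, had 0.47 ± 0.15 (adjusted p = 0.126), Rps6ka1, a kinase downstream of ERK, -0.33 ± 0.11, Mapk7, which encodes ERK5, 0.34 ± 0.14, and Map2k1, which encodes MEK1, -0.23 ± 0.15.

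Of 17 tested SRF, TCF and CREB regulators 0 were called, with 5 at an unadjusted p under 0.05 and a median of -0.18. Mkl1 and Mkl2 encode coactivators of SRF, and they had log2 fold changes of -0.37 ± 0.09 (adjusted p = 0.0674) and -0.30 ± 0.11 (adjusted p = 0.20). Nab2, a corepressor of EGR proteins, had -0.53 ± 0.21, and the factor gene Mef2a -0.18 ± 0.11. Of 14 tested genes of AP-1 turnover 0 were called, with 3 at an unadjusted p under 0.05. Ddb1, part of a ubiquitin ligase, had -0.36 ± 0.10 (adjusted p = 0.0986), Senp2, a SUMO protease, 0.33 ± 0.10, and Fbxw7, which marks Jun for destruction, 0.51 ± 0.18.

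Of 13 tested genes known as AP-1 targets 0 were called, with 4 at an unadjusted p under 0.05 and a median of 0.17. The protease gene Mmp12 was at 3.44, 4.07 and 1.82 CPM in control and 34.8, 3.99 and 18.0 CPM in Pex5-deficient libraries. Pex5-deficient replicate 2 lay within the control range, the log2 fold change was 2.57 ± 0.68 (adjusted p = 0.0878), and without that library it was 3.08 and called (adjusted p = 0.00624). Plau, which encodes urokinase, had 1.23 ± 0.32 (adjusted p = 0.0855), and 1.46, called, without that library (adjusted p = 0.0379). DESeq2 called Mmp12 (0.0412), Plau (0.0228) and Cdkn1a (0.0329). The cell cycle inhibitor gene Cdkn1a had 0.44 ± 0.12 (adjusted p = 0.0914), and Fth1, the ferritin heavy chain and most abundant gene of the list, 0.20 ± 0.43.

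**Figure D5:**
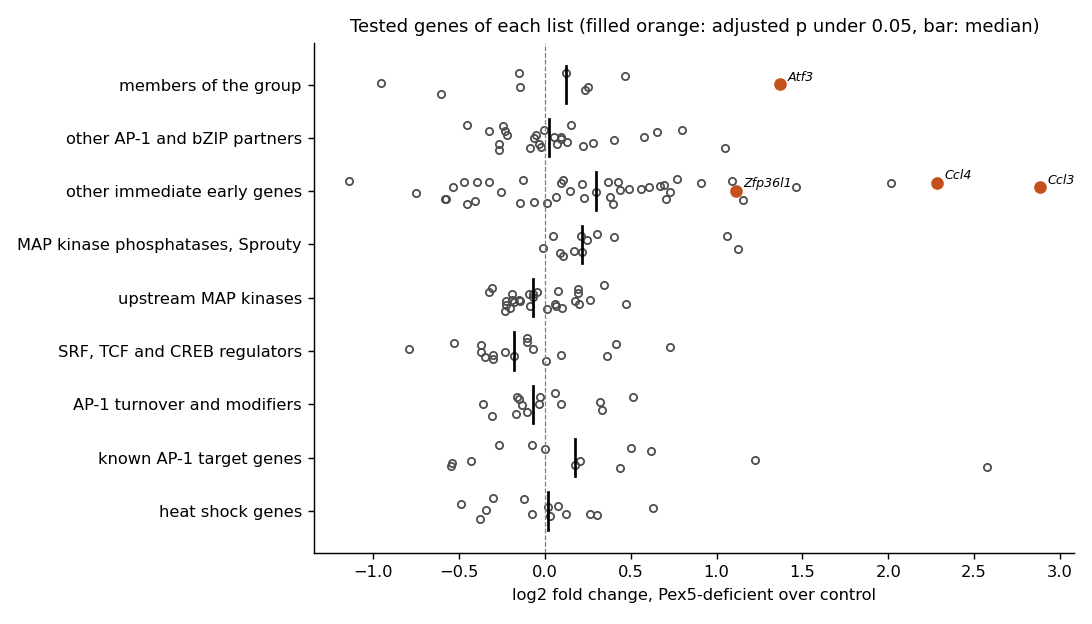
Log2 fold change, Pex5-deficient over control, of each tested gene (points) in the group itself, the 7 lists around it and the heat shock genes, with the list median as a bar. The 4 genes with an adjusted p under 0.05 (filled) are Atf3, Ccl3, Ccl4 and Zfp36l1, all above 0.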

How the data were processed

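RNA from sorted alveolar macrophages was sequenced after a stranded SMART-Seq preparation as single-end reads of 100 bases, per the labels' protocols. The values are gene counts deposited by the authors. STAR, featureCounts, R 4.3.2 and DESeq2 1.40.1, with the builds GRCm38.p5 and mm10, are named without roles per the submitters' processing notes. No source used here states the annotation, the strand setting or the aligner version. The kit uses PCR, and the labels name no molecular identifiers, so counts are of reads.

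Genes were filtered with edgeR's filterByExpr (minimum count 10, minimum total 15), scaled by TMM and tested by the quasi-likelihood F test (edgeR 4.0.16, R 4.3.3), two-sided, adjusted over all 11011 genes tested, threshold 0.05. CPM use the scaled library sizes unless called unscaled. SEs were derived from the F statistic. DESeq2 1.42.0 and limma-voom (limma 3.58.1), other scalings and filters, the replicate block and leaving out each library were the alternatives. The steps were tested on simulated data. No pair of libraries held near-identical counts. The members and lists were chosen with earlier results of these data known. Named genes are all members and, from each list, the 3 tested genes with the smallest p and the most abundant one. Some of those from marker lists are not used here, and marker genes at or near 0 are named for their level. The tested marker Csf3r, the other called alveolar macrophage markers and Fosl1 are named as well. A listed gene is not reported here and is left out of the list counts, medians, sums and this choice of names. Gene positions and lengths are from GENCODE M21, start sites from RefSeq.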

Additional observations from a re-analysis of the deposited data

How the results depend on the processing

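No label says that the replicate numbers pair the samples. The deviations of same-numbered libraries from their group means correlated at -0.21, -0.06 and -0.41 across genes. No shared effect of the replicate number was thus seen, but 3 libraries per group cannot tell whether samples were collected in pairs. With the replicate number as a block, 83 genes, 0 members and 2 listed pathway genes were called, Zfp36l1 and Ccl4 lost their calls, Ccl3 did not, and Atf3 had a log2 fold change of 1.33 (adjusted p = 0.0572). Atf3 was the member called under the 5 other scalings and filters, with DESeq2 and with limma-voom. DESeq2 called 744 genes, against 358, and 18 listed pathway genes, against 3. The latter count was 13 with scaling by library size alone, 9 with no filter, 2 when genes needed a mean of 5 CPM, and 2 with limma-voom. Under scaling by library size alone the median gene had a log2 fold change of 0.17, with 289 higher and 132 lower genes, against 192 and 166. This turned the sign of Fosl2 (0.081), Ier2 (0.039), Nfe2l2 (0.12) and Hsp90ab1 (0.053), none called. Leaving out 1 library at a time gave 76 to 523 genes, 0 to 1 members and 0 to 11 listed pathway genes, and a member median of -0.02 to 0.27. Over these 6 fits Fos ranged from -0.32 (without Pex5-deficient replicate 1) to 0.35, Fth1 from -0.062 (without the same library) to 0.50, Sgk1 from -0.097 (without control replicate 3) to 0.29, Hsp90ab1 from -0.37 to 0.12, and Nfe2l2 from -0.099 to 0.10, none called. The last 2 were above 0 without replicate 2 of either group, and Sgk1 was below 0 also without Pex5-deficient replicate 3. The cause was not tested. Depth limits Egr1, Fosb and Ccl4.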

Other observations

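The mean of the centred log2 CPM of the 9 tested members over the 6 libraries was highest in Pex5-deficient replicate 1 (0.25) and lowest in Pex5-deficient replicate 3 (-0.25), with control replicates 1 to 3 at 0.10, -0.08 and -0.11. Among genes outside the group with a mean of at least 5 CPM, the 5 nearest to this profile were Tmem69, Meaf6, Cnbd2, Map2k4 and Abl2. Their mean absolute difference from it over the 6 libraries was 0.044, 0.050, 0.052, 0.055 and 0.059 on the log2 scale. Map2k4, the kinase that activates JNK, measured 23.2, 21.2 and 21.1 CPM in control and 25.2, 24.4 and 20.7 CPM in Pex5-deficient libraries. The profile rests on 6 libraries.

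Among the heat shock genes, Hsf1, the factor that induces the others, had a log2 fold change of 0.26 ± 0.13, the chaperone genes Dnajb4 -0.49 ± 0.26 and Dnaja1 -0.38 ± 0.22, and Hsp90ab1, the most abundant, -0.08 ± 0.25, none called by edgeR's quasi-likelihood test.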
